A study of Oryza sativa with 5 samples.

Results

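Of the 7538 sequence tags that were found in all 5 seedling libraries and matched to the rice genome, 6812 matched a single position and 726 matched 2 positions. The 6812 single-position tags, chosen only by this number of matches and not by their copies, were compared here between the libraries by chromosome, strand, mismatch and 1-Mb window. Each library came from 1 genotype of Oryza sativa: the indica cultivar Minghui 63 (MH63), the indica cultivar Zhenshan 97 (ZS97), their hybrid Shanyou 63 (SY63), an SY63 hybrid over-expressing the HD2-type histone deacetylase gene OsHDT1 (FU, coded FV in the labels), and an SY63 hybrid with an OsHDT1 RNAi construct (FR). All seedlings were 15 days old and grew on 1/2 MS medium under days of 15 h light and 9 h dark. According to the study's methods, the constructs were made in MH63, with the maize ubiquitin promoter driving over-expression, and the transgenic plants were crossed to ZS97, so that FU and FR carry a transgene that MH63, ZS97 and SY63 lack. Which of several transgenic lines was sequenced, and how many seedlings entered a library, is not given in the sources used here.

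In this type of tag sequencing, the enzyme NlaIII cuts cDNA held by its poly(A) end at CATG, and the enzyme MmeI then releases a short tag that begins with the CATG nearest the tail. The tag therefore marks the strand and the 3′ part of a transcript, and its copies count transcripts without a correction for length. A cDNA whose last CATG lies very close to the cleavage site gives a tag that runs on into the tail and ends in A. A cDNA that ends at an earlier or later poly(A) site, or that was cut incompletely, gives a different tag from the same gene. A tag matched to the genome can thus come from an annotated transcript, from its antisense strand or from a stretch without a gene model.

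All tags were 21 bases long and began with CATG. The 10 single-position tags with the most copies are shown first because they carried between 11.7% (FU) and 15.8% (MH63) of the copies. They are written 5′ to 3′ as sequenced, with CATG in capitals, or the mismatched base where the genome differs at 1 base, or a run of 8 or more A at the 3′ end.
tag 1, chr12:13114614-13114634, plus strand: Catggaaagaaaaagttttaa
tag 2, chr11:28409813-28409833, minus strand: CATGacaagtttttgttaata
tag 3, chr5:23214557-23214577, minus strand: catgttgtccAAAAAAAAAAA
tag 4, chr5:5415301-5415321, plus strand: CATGgggatttgtagatatat
tag 5, chr7:445404-445424, minus strand: CATGatgtatagataaaatta
tag 6, chr3:9845521-9845541, plus strand: Catgctcaactgcaatgctgc
tag 7, chr3:4101706-4101726, plus strand: CATGgcactcgttgcattgac
tag 8, chr1:12301499-12301519, plus strand: CATGcaatgcaatgatgaacc
tag 9, chr3:32391449-32391469, minus strand: CATGttgaccggtgcatttgg
tag 10, chr2:3271432-3271452, minus strand: CATGtactactaccttgtaaa

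Positions are those of the deposited table, with the lower end of the tag as the start on either strand. The genome build of this table, and whether its starts count from 0 or from 1, are not given in the sources used here. No genome or annotation of that build was used, so whether a tag lies in an exon, an intron, a UTR or between genes was not analysed here. Tag 1 differed from the genome by A1C, tag 3 by G3T and tag 6 by T1C, written as the genome's base, the position counted from 1 at the tag's 5′ end, and the tag's base. At tags 1, 3 and 6 the genome itself therefore has no CATG at the matched position. The paper states that its reads were aligned to a japonica genome, whereas MH63 and ZS97 are indica cultivars.

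Before the tags were compared, the libraries were checked against their labels. OsHDT1 had 2633 tags in MH63, 304 in ZS97 and, among the hybrids, 428 in SY63, 142 in FR and 7590 in FU, so FU held the most and FR the fewest. MH63, which has no transgene by its label, stood well above ZS97 and SY63. The paper reports no clear difference in OsHDT1 transcript between MH63 and SY63 by qRT-PCR, or in protein among MH63, ZS97 and SY63. Its protein came from leaves of older plants, and its qRT-PCR followed a daily rhythm under long and short days. Those values were thus not taken under the conditions of these seedling libraries. Why the MH63 library was high was not tested. The 17 genes described as chlorophyll A-B binding proteins, which mark green tissue, all had tags in every library and summed to between 5004 (MH63) and 14796 (ZS97) TPM, the tags per 1000000 clean tags. The chlorophyll A-B binding genes differed most between the parents, and their part in the comparisons of the parents was not tested. Other green-tissue genes did not show so large a difference. The 4 genes for the small chain of ribulose bisphosphate carboxylase summed to 42814 TPM in MH63 and 41191 in ZS97, with FR highest at 58098. The 18 photosystem genes summed to between 16291 (MH63) and 19005 (FU) TPM, and 16 of them had tags in SY63. Clean tags, as derived from copies and TPM, ranged from 4821639 in FU to 5022080 in MH63, with 5011951 in FR, 4957346 in ZS97 and 4857064 in SY63. No genotype had a replicate library. The test used, the exact test of Audic and Claverie on the copies, therefore compared libraries and not genotypes, and intervals are 95% intervals that cover counting error only. In RNA from whole seedlings, fewer cells of a type and less RNA per cell cannot be told apart.

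Single-position tags made up 5.38% of all clean tags in MH63, 4.74% in ZS97, 4.55% in FR, 4.31% in SY63 and 4.12% in FU. MH63 had the highest share and FU the lowest. Most of these tags were rare, with a median of 9 (FU) to 11 (MH63) copies, and between 3112 (MH63) and 3453 (FU) tags had fewer than 10 copies. Only 343 (FU) to 446 (MH63) tags reached 100 copies. The table lists no tag with fewer than 2 copies in any library, so a tag that was absent from 1 library could not enter, and the largest differences are missing from it.

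Among the most abundant tags, tag 1 had 9788 copies in MH63 against 6519 in ZS97, and 6491 in SY63, 6539 in FR and 5331 in FU. MH63 stood above the other 4 libraries, which lay close together. Tag 2 had 7184 copies in MH63 and 7163 in ZS97, with 4194 in SY63, 5418 in FR and 3627 in FU. Both parents exceeded all 3 hybrid libraries at this tag. For tag 3, which ends in a run of A, the copies were 5468 in MH63, 4227 in ZS97 and, among the hybrids, 2715 in SY63, 4981 in FR and 2686 in FU. FR was thus near the parents and apart from SY63 and FU. For tag 8 there were 2618 copies in MH63 against 1118 in ZS97, and 1456 in SY63, 1978 in FR and 645 in FU, which is the largest ratio of FR to FU among the 10. Tag 9 showed the opposite order of the parents, with 602 copies in MH63 against 1644 in ZS97, and 2005 in SY63, 1716 in FR and 1766 in FU. The 3 hybrid libraries were on the side of ZS97 at tag 9. The remaining 5 tags were highest in MH63 (tags 4, 5, 6 and 7) or in ZS97 (tag 10).

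**Figure D1:**
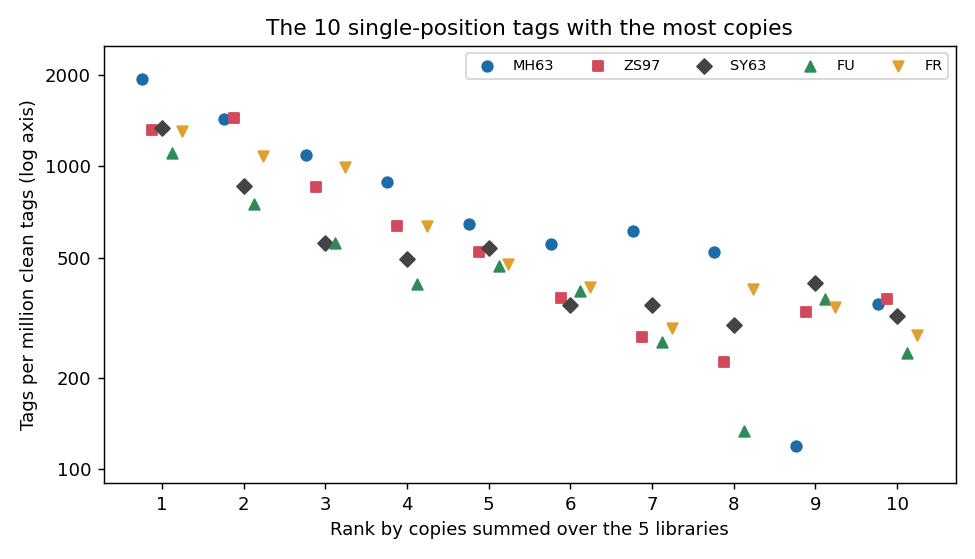
Level of the 10 single-position tags with the most copies (horizontal axis, rank by copies) in TPM on a log axis, with 1 point per library and no replicates. MH63 is highest at 7 of the 10 ranks and lowest at rank 9, and FU lies far below the other libraries at rank 8.

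The parents differed most. Between MH63 and ZS97, 304 single-position tags were called higher in MH63 and 228 lower, at a false discovery rate of at most 0.001 over all 7538 tags and a ratio of at least 2-fold. These 532 tags were 7.81% of the single-position tags, against 8.13% of all tags in the table (4.55% higher and 3.58% lower). Since 6812 of the 7538 tags have 1 position, these shares are bound to be close, here and in the comparisons below. The median log2 ratio was -0.02 over the single-position tags and -0.02 over all tags. This is the log2 ratio of a tag with equal copies in both libraries, whose totals of clean tags differ slightly. As most tags had few copies, medians can rest on such ties, and equal medians do not show that sets of tags are alike. The split in direction depended on the scaling: 57.1% of the called tags were higher in MH63 when copies were divided by clean tags, and 39.1% when they were divided by the total of the table.

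Among called tags with at least 20 copies in both libraries compared, a minimum used for all largest ratios named here, those with the largest ratios between the parents were low in 1 parent and intermediate or low in the hybrids. Capitals mark CATG, the mismatched base or the run of A, as above.
chr11:10048120-10048140, minus strand: CATGtaactcttctggttgat
chr12:22559786-22559806, plus strand: caTgagtgaataaaatacaca
chr3:9973997-9974017, minus strand: catgcttgacAAAAAAAAAAA
chr4:20769154-20769174, plus strand: CATGtgcaaacatagcagagt
The chromosome 11 tag had 481 copies in MH63 and 21 in ZS97, with 40 in SY63, 95 in FR and 93 in FU. MH63 stood alone, and its log2 ratio to ZS97 was 4.50 (95% interval 3.87 to 5.20). The chromosome 12 tag, which carries C3T, had 448 copies in MH63, 24 in ZS97 and, among the hybrids, 39 in SY63, 65 in FR and 32 in FU, and its log2 ratio was 4.20 (3.61 to 4.86). Again only MH63 was high. In the other direction, the chromosome 3 tag with the run of A had 28 copies in MH63 against 333 in ZS97, and 161 in SY63, 168 in FR and 77 in FU, a log2 ratio of -3.59 (-4.20 to -3.03). SY63 and FR lay between the parents and close to each other, and FU lay lower. The chromosome 4 tag had 24 copies in MH63 and 218 in ZS97, with 85 in SY63, 97 in FR and 142 in FU, with a log2 ratio of -3.20 (-3.88 to -2.59). All 3 hybrid libraries were between the parents there.

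The tags called between the parents were followed into the hybrids, as a description, since the parental values that chose the tags also set the range. The 304 tags called higher in MH63 had median levels of 18.7 TPM in MH63, 4.74 in ZS97 and, among the hybrids, 6.49 in SY63, 6.78 in FR and 7.26 in FU. SY63 lay between the parents at 238 of them (78.3%) and nearer to ZS97 at 249 (81.9%). The 228 tags called higher in ZS97 had median levels of 2.99 TPM in MH63 against 13.9 in ZS97, and 9.68 in SY63, 9.58 in FR and 9.02 in FU. SY63 lay between the parents at 191 of these (83.8%) and nearer to ZS97 at 174 (76.3%). FU was nearer to ZS97 at 219 (72.0%) of the tags higher in MH63 and at 144 (63.2%) of those higher in ZS97, and FR at 228 and at 186. In both lists the hybrids' medians were thus on the side of ZS97, the seed parent of the transgenic hybrids.

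Fewer differences separated SY63 from ZS97 than from MH63. Against MH63, 129 single-position tags were called higher in SY63 and 321 lower, which is 6.61% of them, beside 6.79% of all tags (2% higher and 4.79% lower). Against ZS97, 36 were called higher and 44 lower, which is 1.17%, beside 1.21% of all tags (0.491% higher and 0.716% lower). Against the mid-parent, the mean level of the parents tested on their summed copies, 51 were higher and 116 lower, which is 2.45%, beside 2.51% of all tags (0.69% higher and 1.82% lower). These 3 comparisons share the SY63 library. The median log2 ratios of the single-position tags were -0.14 to MH63, -0.11 to ZS97 and -0.21 to the mid-parent, and over all tags they were -0.15 to MH63 and -0.14 to ZS97.

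The direction of these calls was not stable to the scaling. The share of called tags that were higher in SY63 than in MH63 was 28.7% with clean tags, 63.5% with the table's total, 41.3% with TMM factors and 42.2% with DESeq2 size factors. Against ZS97 the share was 45.0% with clean tags, 66.7% with the table's total and 65.8% with either of the other scalings. Against the mid-parent it was 30.5% with clean tags and 48.5% with TMM factors. Relative to clean tags, the table's total moved every log2 ratio of SY63 to MH63 by 0.36, of SY63 to ZS97 by 0.15 and of MH63 to ZS97 by -0.21. TMM factors moved the ratios of SY63 to MH63 by 0.14 and to ZS97 by 0.13. The ratios of the tags named for their largest ratios exceed these shifts.

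**Figure D2:**
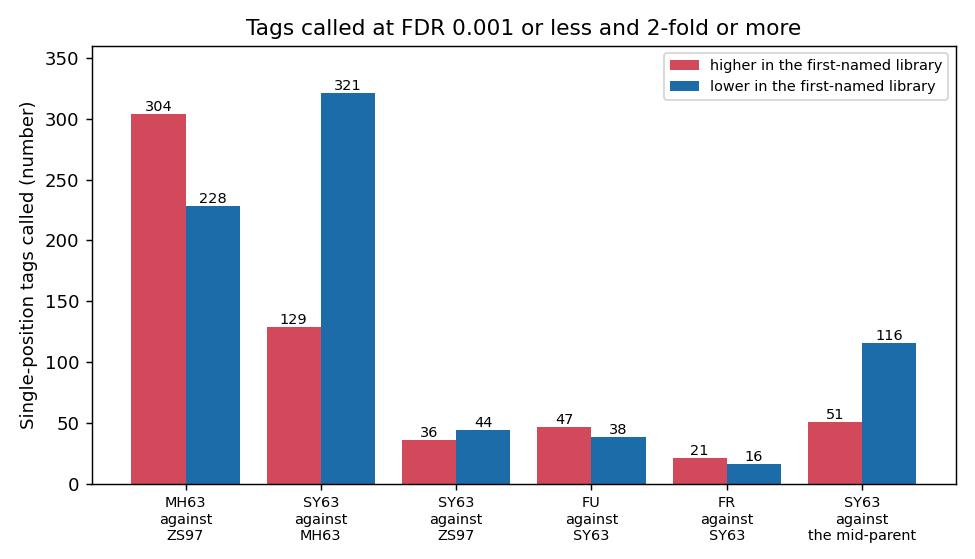
Number of single-position tags called in each comparison (vertical axis, from 0), with 1 bar for tags higher and 1 bar for tags lower in the library named first. The comparison of the parents gives 304 and 228 tags and that of FR with SY63 gives 21 and 16.

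Several tags separated SY63 from both parents. At chr1:31765584-31765604 on the plus strand the tag had 20 copies in MH63 and 11 in ZS97, with 158 in SY63, 122 in FR and 23 in FU.
chr1:31765584-31765604: CATGgcggcgtcgaccaaggc
SY63 and FR were high at this tag, and both parents and FU were low. The log2 ratio of SY63 to MH63 was 3.03 (2.35 to 3.78), that to the mid-parent was 3.39, and that of FU to SY63 was -2.77 (-3.47 to -2.13). A plus-strand tag at chr10:19383059-19383079 had 18 copies in MH63, 45 in ZS97 and, among the hybrids, 246 in SY63, 189 in FR and 108 in FU. Its log2 ratio of SY63 to ZS97 was 2.48 (2.02 to 2.97), and the 3 hybrid libraries were all above both parents. On chromosome 9 at 17851953 on the minus strand, a tag had 637 copies in MH63 against 160 in ZS97, and 613 in SY63, 596 in FR and 349 in FU. Here SY63 and FR were near the level of MH63, with a log2 ratio of SY63 to ZS97 of 1.97 (1.71 to 2.23).

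In the other direction, a minus-strand tag at chr4:33162842-33162862 had 243 copies in MH63 and 6 in ZS97, with 20 in SY63, 6 in FR and 23 in FU. MH63 alone was high, and the log2 ratio of SY63 to MH63 was -3.55 (-4.29 to -2.90). A minus-strand tag on chromosome 3 at 18109241, with G20A, had 2 copies in MH63, 75 in ZS97 and, among the hybrids, 20 in SY63, 26 in FR and 11 in FU. MH63 was lowest and ZS97 highest, and its log2 ratio of SY63 to ZS97 was -1.88 (-2.67 to -1.15). On chromosome 7 at 25610111 on the plus strand, the copies were 67 in MH63 against 91 in ZS97, and 24 in SY63, 48 in FR and 30 in FU. Both parents exceeded all 3 hybrid libraries there, with a log2 ratio of SY63 to ZS97 of -1.89 (-2.61 to -1.23).

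OsHDT1 encodes a member of the plant-specific HD2 family of histone deacetylases, enzymes that remove acetyl groups from histones and are generally linked to lower transcription. In FU, which over-expresses it, 47 single-position tags were called higher than in SY63 and 38 lower, 1.25% of the tags beside 1.19% of all tags (0.677% higher and 0.517% lower). In FR, the RNAi hybrid, 21 were called higher and 16 lower, 0.543% beside 0.584% of all tags (0.332% higher and 0.252% lower). SY63 is the control in each of these comparisons, so their calls are not independent. The median log2 ratio of the single-position tags was 0.01 for FU and -0.02 for FR. The value for FU is that of a tag with equal copies in FU and SY63. Of the called tags, 55.3% were higher in FU with clean tags and 71.9% with the table's total, and 56.8% were higher in FR with clean tags, 42.5% with the table's total and 46.2% with TMM factors or DESeq2 size factors. Among the 1149 tags with at least 20 copies in every library, the median size of the log2 ratio was 0.37 for FU to SY63 and 0.29 for FR to SY63, beside 0.36 for SY63 to ZS97, 0.55 for SY63 to MH63 and 0.57 for MH63 to ZS97.

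With that minimum, the largest ratio of FU to SY63 was at a plus-strand tag whose CATG is also the CATG of tag 2.
chr11:28409830-28409850, plus strand: CATGcccagctatggcttggg
It had 284 copies in MH63 and 884 in ZS97, with 122 in SY63, 103 in FR and 571 in FU. FU and ZS97 were high, and SY63 and FR were low. The log2 ratio of FU to SY63 was 2.24 (1.95 to 2.53), and that of SY63 to ZS97 was -2.83 (-3.11 to -2.55). A minus-strand tag at chr10:2755853-2755873 had 65 copies in MH63, 43 in ZS97 and, among the hybrids, 29 in SY63, 36 in FR and 106 in FU, and FU was the highest library, with a log2 ratio to SY63 of 1.88 (1.28 to 2.53). Among tags lower in FU, a plus-strand tag on chromosome 1 at 42301126 had 2 copies in MH63 against 260 in ZS97, and 120 in SY63, 97 in FR and 36 in FU. FU was the lowest of the hybrid libraries, with a log2 ratio to SY63 of -1.73 (-2.31 to -1.18).

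For FR, with the same minimum, the largest ratio to SY63 belonged to a tag that was also high in FU.
chr7:21505569-21505589, plus strand: catgttgttgtatgtatttTa
This tag, with G20T, had 10 copies in MH63 and 106 in ZS97, with 76 in SY63, 360 in FR and 266 in FU. Both transgenic hybrids exceeded the 3 genotypes without a transgene, and the log2 ratio of FR to SY63 was 2.20 (1.84 to 2.58). A minus-strand tag at chr4:32118982-32119002 had 83 copies in MH63, 26 in ZS97 and, among the hybrids, 31 in SY63, 106 in FR and 31 in FU. FR was high together with MH63, and the log2 ratio was 1.73 (1.14 to 2.36). Among tags lower in FR, a plus-strand tag at chr3:9957192-9957212 had 432 copies in MH63 against 78 in ZS97, and 98 in SY63, 40 in FR and 197 in FU, a log2 ratio of -1.34 (-1.91 to -0.79) that places FR below every other library.

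By chromosome, the single-position tags numbered from 356 (chromosome 10) to 960 (chromosome 1). The share called between MH63 and ZS97 ranged from 6.53% of the 521 tags on chromosome 5 to 10.1% of the 376 tags on chromosome 11. Over all tags in the table it was 8.13% (4.55% higher and 3.58% lower). Chromosome 10 leaned to MH63: 26 of its tags were called higher and 9 lower, its median log2 ratio was 0.17, and its summed level was 3369 TPM in MH63 and 2405 TPM in ZS97. The shift of -0.21 under the table's total is larger than this median and turns its sign. Chromosome 3 also had more tags higher in MH63, with 48 against 21, whereas chromosome 12 had 10 higher and 17 lower. The calls of FU against SY63 were few on each chromosome. They were lowest at 0.35% of the tags on chromosome 3 (1 higher and 2 lower). The highest shares were 3.09% on chromosome 10 (7 higher and 4 lower) and 3.19% on chromosome 12 (5 higher and 8 lower), beside 1.19% of all tags. No test of a difference between chromosomes was made, since neighbouring tags are not independent. On the plus strand lay 3438 tags and on the minus strand 3374. The median log2 ratio of MH63 to ZS97 was -0.02 on each strand, the value of a tag with equal copies, which does not show the strands to be alike. The log2 ratio of the pooled copies was 0.24 on the plus strand (0.23 to 0.25) and 0.13 on the minus strand (0.12 to 0.14). For SY63 to ZS97 the pooled log2 ratio was -0.07 on the plus strand (-0.09 to -0.06) and -0.20 on the minus strand (-0.21 to -0.19). Pooled copies weigh the most abundant tags most.

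In most windows of 1 Mb the parents were close. Tags fell in 377 windows, with a median of 17 and at most 54 tags per window. Of the 359 windows with at least 5 tags, 303 had a median log2 ratio of MH63 to ZS97 between -0.5 and 0.5, 26 were at or above 0.5 and 30 at or below -0.5. In 118 of the 377 windows no tag was called. These counts of windows depended on how a window was summarised: pooling the copies in a window put 100 windows past 0.5 in either direction. With windows of 2 Mb, 12 of 190 were past it.

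The 3 highest medians were all on chromosome 11. Between 10 and 11 Mb the median was 1.42 over 10 tags, and 4 of the 10 were called higher in MH63. All 4 lay within a stretch starting at 10047965 and ending at 10048140, on both strands. Their copies in MH63 and ZS97 were 48 and 5, 123 and 6, 46 and 3, and 481 and 21, the last being the tag printed above. The hybrids had 15 to 95 copies of each. Between 14 and 15 Mb the median was 0.98 over 7 tags, with 1 called tag that had 228 copies in MH63 and 2 in ZS97, with 19 in SY63, 34 in FR and 75 in FU. Between 26 and 27 Mb the median was 0.91 over 6 tags, but the pooled log2 ratio was -0.03, since the 2 most abundant tags had log2 ratios of 0.26 and -0.66.

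The lowest medians rested on few tags. On chromosome 9 between 6 and 7 Mb the median was -1.34 over 5 tags, none of them called, and the pooled log2 ratio was -0.10. These tags lay at 3 positions, and 3 of them, each ending in 9 or more A, shared chr9:6833495-6833515. On chromosome 4 between 6 and 7 Mb it was -1.15 over 7 tags, with a pooled log2 ratio of -0.25. These tags lay at 5 positions, and 3 of them, each ending in 6 or more A, shared chr4:6257928-6257948. As described below, the position of tags with a long run of A is uncertain. On chromosome 12 between 9 and 10 Mb the median was -1.13 over 5 tags, and 1 tag with a run of A accounted for the pooled log2 ratio of -2.69. It had 13 copies in MH63, 363 in ZS97 and, among the hybrids, 164 in SY63, 165 in FR and 68 in FU. This tag followed the order seen at the run-of-A tag on chromosome 3, with ZS97 highest, SY63 and FR alike, FU lower and MH63 lowest.

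The windows below held the most calls between the parents. On chromosome 8 between 7 and 8 Mb, 7 of 14 tags were called, 6 of them lower in MH63. Of these 6 tags, 5 lay between 7881480 and 7881809, a small part of the window. Its minus-strand tags number 4, and 3 of them are printed, chosen after their values were seen, because they show distinct tags from 1 stretch with the same order of the parents.
chr8:7881480-7881500, minus strand: CATGtaccataatatagttag
chr8:7881597-7881617, minus strand: CATGacttgaatatgtttcag
chr8:7881789-7881809, minus strand: CATGtaggggagaagtacaag
The first had 14 copies in MH63 against 116 in ZS97, and 72 in SY63, 67 in FR and 87 in FU. The second had 15 copies in MH63 and 131 in ZS97, with 98 in SY63, 97 in FR and 125 in FU. The third had 39 copies in MH63, 158 in ZS97 and, among the hybrids, 155 in SY63, 213 in FR and 252 in FU. MH63 was lowest at each of them, and the log2 ratios of MH63 to ZS97 were -3.07, -3.15 and -2.04. A plus-strand tag inside this stretch, starting at 7881638, had 17 copies in MH63 against 96 in ZS97, and 45 in SY63, 66 in FR and 34 in FU, and so was low in MH63 as well.

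On chromosome 3 between 9 and 10 Mb, 9 of 34 tags (26.5%) were called, 6 higher and 3 lower in MH63. A pair of them, starting at 9957188 and 9957192 on the plus strand, overlap because the first begins with CATGCATG and thus holds both cut sites.
chr3:9957188-9957208, plus strand: CATGcatgtatctatctagta
chr3:9957192-9957212, plus strand: CATGtatctatctagtaccta
The upstream tag had 110 copies in MH63 and 19 in ZS97, with 37 in SY63, 8 in FR and 49 in FU, and the downstream tag, whose copies are given above, had about 4 times as many in each of the parents. Their log2 ratios of MH63 to ZS97 were 2.51 (1.80 to 3.30) and 2.45 (2.10 to 2.82), which overlap. On chromosome 3 between 18 and 19 Mb, 7 of 37 tags were called, 5 higher and 2 lower. There the most abundant called tag, at chr3:18621834-18621854 on the plus strand, had 454 copies in MH63, 94 in ZS97 and, among the hybrids, 135 in SY63, 168 in FR and 125 in FU, a log2 ratio of 2.25 (1.93 to 2.59). A minus-strand pair in this window differed in opposite directions within a short stretch: the tag at 18109241 had 2 copies in MH63 and 75 in ZS97, and the tag at 18109685 had 102 in MH63 and 3 in ZS97.

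**Figure D3:**
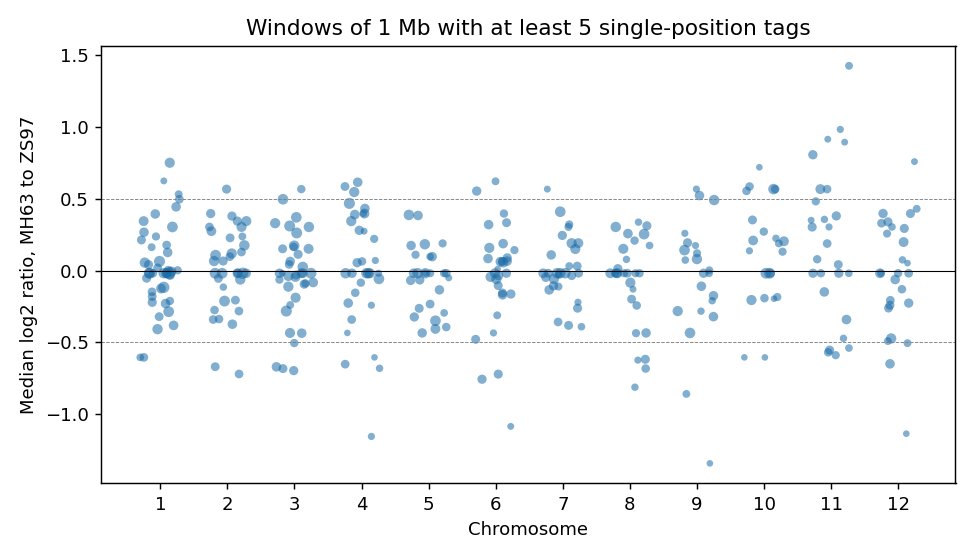
Median log2 ratio of MH63 to ZS97 (vertical axis) of the single-position tags in each 1-Mb window with at least 5 tags, by chromosome (horizontal axis, points spread sideways at random), with larger points for more tags and dashed lines at 0.5 and -0.5. Most windows lie between the dashed lines, and the highest, at 1.42, is on chromosome 11.

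A mismatch to the genome was present in 1770 single-position tags (26.0%), and which of them are differences between indica and japonica was not tested. Of these mismatches, 584 (33.0%) fell within CATG, which makes up 19.0% of the positions of a tag. Towards the 3′ end the mismatches changed in kind: at base 21, 126 of 142 mismatches (88.7%) put an A in the tag, at base 20 it was 61 of 76 (80.3%), and at base 10 it was 16 of 83 (19.3%). Between the parents, 50 tags with a mismatch were called higher in MH63 and 69 lower, whereas tags without one had 254 higher and 159 lower. The shares called were 6.72% with a mismatch and 8.19% without one, beside 8.13% of all tags in the table. Tags with a mismatch had a median log2 ratio of -0.25 for FU to SY63 and 0.19 for FR to SY63. Tags without one had 0.01 and -0.05, the values of a tag with equal copies in the libraries compared.

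This difference was found in the tags that end in a run of A. A run of 8 or more A, a class set after the data had been seen, was present in 646 single-position tags (9.48%), and 619 of these (95.8%) had a mismatch, against 18.7% of tags with a shorter run. With the run of A set aside, the 1151 mismatched tags had medians of -0.06 for FU to SY63 and -0.05 for FR to SY63, the latter again the value of equal copies. Since tags of this class share most of their bases, a copy may be matched to a position by few bases, and the position is uncertain. The longest run had 14 bases. Of the 2-position tags, 294 of 726 (40.5%) ended in such a run. The examples below, chosen after their values were seen, show how few bases before the run carry the position.
chr1:6475593-6475613, minus strand: catggaattAAAAAAAAAAAA
chr7:20787830-20787850, plus strand: catgtttcgatcAAAAAAAAA
chr9:16537269-16537289, minus strand: catgttagcacAAAAAAAAAA
The chromosome 1 tag had 587 copies in MH63 against 661 in ZS97, and 463 in SY63, 922 in FR and 372 in FU. The chromosome 7 tag had 474 copies in MH63 and 661 in ZS97, with 425 in SY63, 796 in FR and 458 in FU. The chromosome 9 tag had 301 copies in MH63, 715 in ZS97 and, among the hybrids, 442 in SY63, 684 in FR and 271 in FU. FR exceeded FU and SY63 at all 3.

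The tags with a run of 8 or more A differed between the libraries as a class. Their summed level was 5467 TPM in MH63 against 6614 in ZS97, and 4751 in SY63, 6592 in FR and 3459 in FU, which was 10.2% of the copies of single-position tags in MH63, 13.9% in ZS97, 14.5% in FR, 8.40% in FU and 11.02% in SY63. ZS97 and FR were high, and FU was lowest. The median log2 ratio was -0.52 for FU to SY63, 0.39 for FR to SY63 and -0.94 for FU to FR. FR was above FU at 557 of the 646 tags (86.2%), and at 47.8% of the tags with shorter runs. The difference grew with the run up to 8 bases: the median log2 ratio of FU to FR was 0.06 for tags that do not end in A, -0.11 for 1 or 2 A, -0.14 for 3 or 4, -0.36 for 5 to 7, -0.94 for 8 to 10 and -0.93 for 11 or more. Tags with shorter runs were also grouped by G or C after CATG. Their median log2 ratio of FU to FR was 0.06 for 0 to 3, 4 to 6 and 7 to 8 such bases, and -0.12 for 9 or more. Whether base composition plays a part was not tested. The value of 0.06 is that of a tag with equal copies in FU and FR, so these medians do not show the classes to be alike.

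Under the other scalings the class kept its direction, with medians for FU to FR of -0.76 with the table's total, -0.83 with TMM factors and -0.81 with DESeq2 size factors. Of the calls, 9 tags of the class were lower and 0 higher in FU than in SY63, and 4 were higher and 0 lower in FR. These were 1.39% and 0.619% of the class. In the same direction, 0.517% of all tags in the table were lower in FU and 0.332% were higher in FR. With both directions counted, the shares of all tags were 1.19% and 0.584%. The class shares rest on few calls. Without the class, 76 tags were called in FU and 33 in FR, beside 85 and 37 with it, so most calls came from other tags. One long-run tag, at chr2:31394266-31394286 on the minus strand, had 8 copies in MH63 and 926 in ZS97, with 485 in SY63, 410 in FR and 158 in FU. Its log2 ratio of FU to SY63 was -1.61 (-1.88 to -1.35). What set the share of run-of-A tags in a library was not tested, and with 1 library per genotype the library and the genotype cannot be told apart.

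**Figure D4:**
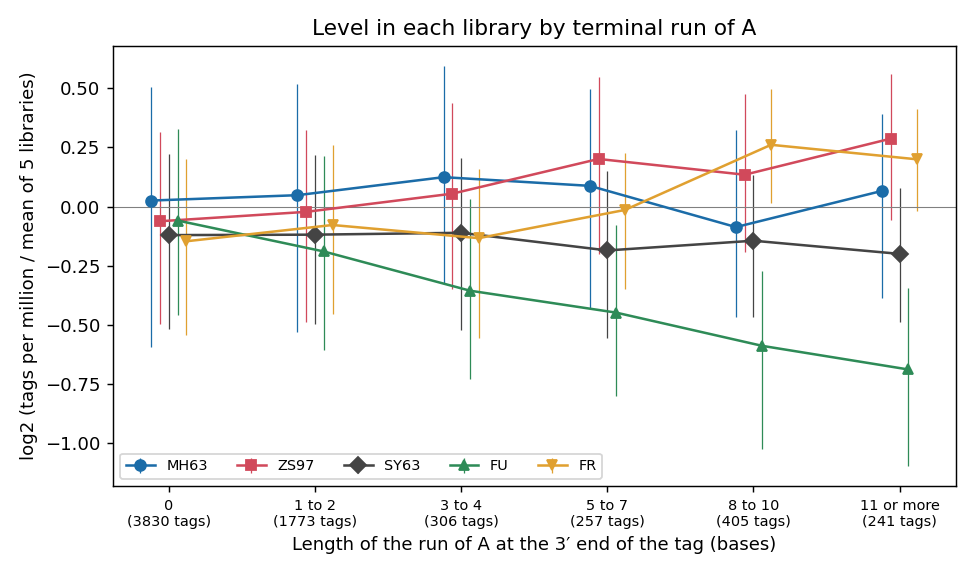
Median over tags of the log2 ratio of a library's level to the mean of the 5 libraries (vertical axis) by the length of the run of A at the tag's 3′ end (horizontal axis), with bars from the lower to the upper quartile of tags. FU falls and FR is highest or second highest at runs of 8 or more, where 646 tags lie.

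Some tags matched the same position as another tag, and what gave rise to the different tags was not tested. At 184 positions more than 1 tag matched on the same strand, with 399 tags in all and up to 5 at a position. These gave 97 pairs of a tag that matches the genome and a tag with 1 mismatch. In 82 of the 97 the mismatch made the tag end in A, or in a longer run of A, and in 54 of them it was an A at base 21. The mismatched tag was the more abundant of the 2 in 23 of the 82 pairs. Over the 82 pairs, the A-ended tag held 20.1% of the copies in MH63 (95% interval 19.4 to 20.8), 27.5% in ZS97 (26.6 to 28.5), 23.8% in SY63 (22.9 to 24.7), 25.5% in FR (24.6 to 26.4) and 20.96% in FU (20.1 to 21.9). ZS97 and FR were thus highest here as well, although the medians over pairs, from 30.5% (FU) to 36.7% (SY63), were in another order.

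The share of the A-ended tag varied widely between positions. The 3 positions with the most copies held it at 0.2% to 0.5% (chr1:6703181-6703201, G16A), 5.8% to 8.1% (chr3:31687662-31687682, T21A) and 21.5% to 28.7% (chr9:7901449-7901469, T20A) in the 5 libraries. The last of these pairs is shown with the differing base in capitals.
chr9:7901449-7901469, minus strand, genome: catgtggataagtgcattaTa
chr9:7901449-7901469, minus strand, mismatch: catgtggataagtgcattaAa
Its genome-matching tag had 838 copies in MH63, 463 in ZS97 and, among the hybrids, 423 in SY63, 381 in FR and 421 in FU, and its A-ended tag had 241 in MH63, 180 in ZS97, 133 in SY63, 153 in FR and 115 in FU. The intervals of the parents' shares did not overlap at 5 of the 97 pairs, 4 of them A-ended pairs. The pairs below belong to these 5 and were chosen after their values were seen.
chr4:33688051-33688071, minus strand, genome: catgtttggaattagctgaaC
chr4:33688051-33688071, minus strand, mismatch: catgtttggaattagctgaaA
chr2:31394266-31394286, minus strand, genome: catgcaaTgaaaaaaaaaaaa
chr2:31394266-31394286, minus strand, mismatch: catgcaaGgaaaaaaaaaaaa
On chromosome 4 the pair had 23 genome-matching and 3 A-ended copies in MH63, 12 and 40 in ZS97, 15 and 11 in SY63, 13 and 15 in FR, and 31 and 22 in FU. The A-ended tag thus held 11.5% in MH63 (4.0 to 29.0), 76.9% in ZS97 (63.9 to 86.3) and 42.3% in SY63 (25.5 to 61.1), with FU at 41.5% and FR at 53.6%, so that all 3 hybrids lay between the parents. On chromosome 2 the tag with T8G held 38.5% in MH63 (5 copies beside 8), 1.4% in ZS97 (13 copies beside 926), 0.8% in SY63, 2.8% in FR and 4.2% in FU. The share in MH63 rests on few copies.

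**Figure D5:**
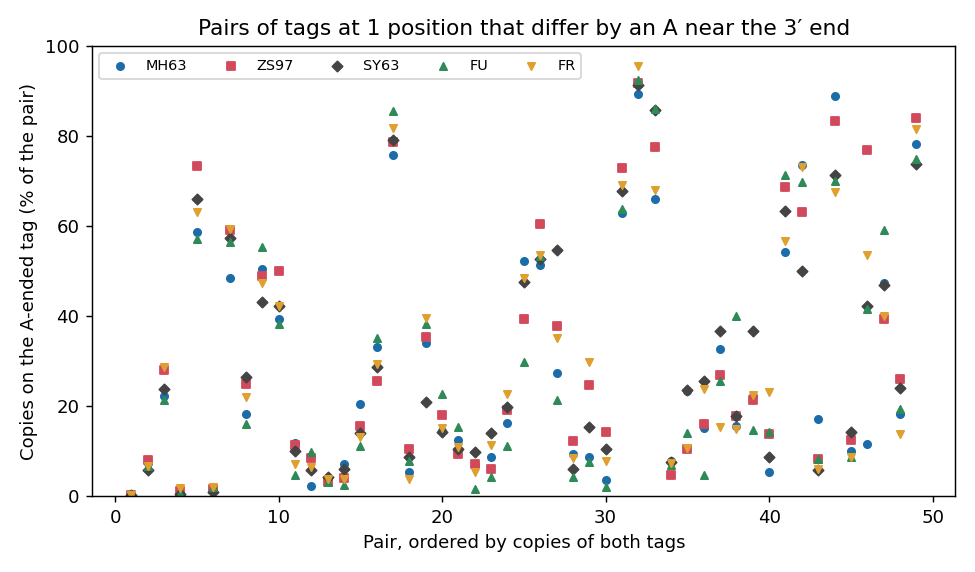
Share of the copies of a pair held by the A-ended tag (vertical axis, percent) at the 49 positions with at least 20 copies in every library, ordered by copies (horizontal axis), with 1 point per library. Shares range over most of the axis between positions, and the libraries lie together at some positions and apart at others.

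Tags were listed on both strands of the same CATG at many sites. Whether each strand had a transcript of its own there was not tested. At 455 CATG sites a plus-strand tag and a minus-strand tag were both listed, which took up 932 of the 6812 tags. The plus-strand tag then starts 17 bases after the minus-strand tag in the table's coordinates, an offset that the next most frequent one reached at only 6 sites. The less abundant strand held a median of 18.0% of the copies at a site, with quartiles of 8.40% and 32.5%. Over the 88 sites with at least 100 copies on each strand, Pearson's r between the strands was 0.49 for the log2 ratio of MH63 to ZS97, 0.71 for SY63 to ZS97, 0.18 for FU to SY63 and 0.26 for FR to SY63. These correlations are over sites that share the same libraries and are a description.

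At the site on chromosome 11 that carries tag 2, the strands differed. The plus-strand tag at 28409830, printed above, had 122 copies in SY63 and 571 in FU, while tag 2 on the minus strand had 4194 and 3627, log2 ratios of FU to SY63 of 2.24 and -0.20. Between the parents the plus-strand tag had a log2 ratio of MH63 to ZS97 of -1.66 and tag 2 of -0.01. Next to them, 54 bases away, both strands have a further listed tag, as shown here.
chr11:28409776-28409796, plus strand: CATGtatagtatagcccatat
chr11:28409759-28409779, minus strand: CATGagtatatttcatttggg
The plus-strand neighbour had 73 copies in MH63 against 90 in ZS97, and 48 in SY63, 69 in FR and 52 in FU, and so did not share the high copies of FU at 28409830. The minus-strand neighbour had 1053 copies in MH63 and 2056 in ZS97, with 879 in SY63, 1312 in FR and 980 in FU, with ZS97 highest, whereas tag 2 was equal in the parents. At a site on chromosome 1 near tag 8, by contrast, the strands moved alike in FU: the plus-strand tag at 12301440 had 338 copies in SY63 and 157 in FU, and the minus-strand tag at 12301423 had 635 and 337, log2 ratios of -1.10 and -0.90.

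Neighbouring tags on the same strand were compared to see whether tags from 1 stretch moved together. There were 508 pairs of neighbours that start 17 to 200 bases apart, and 114 of them had at least 100 copies each. Among the 114, Pearson's r between neighbours was 0.62 for the log2 ratio of MH63 to ZS97, 0.50 for SY63 to MH63, 0.51 for SY63 to ZS97, 0.31 for FU to SY63 and 0.39 for FR to SY63. The ratios of the neighbours differed by 2-fold or more at 38 pairs for MH63 to ZS97, 39 for SY63 to MH63, 14 for SY63 to ZS97, 25 for FU to SY63 and 13 for FR to SY63. The counts were highest in the comparisons with MH63.

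A stretch on chromosome 6, chosen after its values were seen, shows neighbours with the same direction between the parents and ratios of different size.
chr6:16224712-16224732, plus strand: CATGgctcacaatgcaaatca
chr6:16224901-16224921, plus strand: CATGgaaatcaataagaagga
chr6:16224946-16224966, plus strand: CATGccttttatggagttctt
The first had 204 copies in MH63, 6 in ZS97 and, among the hybrids, 50 in SY63, 64 in FR and 52 in FU. The second had 240 in MH63 against 37 in ZS97, and 100 in SY63, 148 in FR and 146 in FU, and the third had 448 in MH63 and 57 in ZS97, with 160 in SY63, 178 in FR and 313 in FU. MH63 was highest and ZS97 lowest at each, with the hybrids between. The log2 ratios of MH63 to ZS97 were 5.07, 2.68 and 2.96. At tag 8 and its neighbour at 12301440 the parents were in opposite order: tag 8 had a log2 ratio of MH63 to ZS97 of 1.21 and the neighbour, 59 bases away with 147 copies in MH63 and 260 in ZS97, had -0.84. Tag 8 held 94.7% of the copies of this pair in MH63 (93.8 to 95.5), 81.1% in ZS97 (79.0 to 83.1), 81.2% in SY63, 80.4% in FU and 84.5% in FR, so that MH63 stood apart in the use of the pair while the 4 other libraries were near each other.

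The 726 tags with 2 positions are given beside these for comparison. Between MH63 and ZS97, 39 of them were called higher and 42 lower. The counts were 22 and 40 for SY63 to MH63, 1 and 10 for SY63 to ZS97, 4 and 1 for FU to SY63, and 4 and 3 for FR to SY63. Over all 7538 tags the shares called in these comparisons were 8.13%, 6.79%, 1.21%, 1.19% and 0.584%. Their median log2 ratio was -0.24 for FU to SY63 and 0.22 for FR to SY63, beside 0.01 and -0.02 for the single-position tags, in the direction of the run-of-A tags that make up 40.5% of them. Whether the run of A accounts for this was not tested. A mismatch was present in 63.6% of the 2-position tags and in 26.0% of the single-position tags.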

How the data were processed

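Tag libraries of 5 rice genotypes, 1 each and nothing pooled, were grouped by the sample labels. According to the study's methods the authors cut cDNA with NlaIII and MmeI, sequenced the tags, and matched clean tags with at most 1 mismatch. The table used here holds the counts (copies) of each tag that the authors deposited, not normalized, beside TPM values that the authors deposited as copies per 1000000 clean tags. Gene counts and TPM of the deposited gene tables served only the check of OsHDT1 and green-tissue genes. The authors' own columns of log2 ratios, p-values and false discovery rates, and tables that repeat genes past their thresholds, were not used. The matching tool is not given in the sources used here. It is also not stated whether tags on annotated cDNAs were removed first.

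Copies were compared by an exact, 2-sided Audic-Claverie test (SciPy 1.17.1), with Benjamini-Hochberg adjustment over all 7538 tags. A tag was called at a false discovery rate of at most 0.001 and at least 2-fold. The totals of clean tags (4821639 to 5022080) were derived from copies and TPM. With 1 library per genotype, the quasi-likelihood test of edgeR had no residual degrees of freedom, and an exact test in edgeR 4.0.16 with an assumed coefficient of variation was an alternative, as were TMM and DESeq2 1.42.0 size factors. Intervals of ratios are exact and those of shares are Wilson intervals. The steps were tested on simulated data.

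Tags were named by rule: the 10 with the most copies, the 3 with the largest ratio per direction and comparison with at least 20 copies in both libraries, the 2 most abundant in each of the 3 windows with the most calls, and the 3 shared positions with the most copies, of which some are printed. Others are marked where named. Mismatches were decoded from the table. The tags and lists were chosen with earlier results of these data known, and the classes by run of A, shared position, strand and neighbour were set after the data had been seen.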

Additional observations from a re-analysis of the deposited data

How the results depend on the processing

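The total calls of each comparison, both directions together, stayed within 1.5 times their value under the TMM, DESeq2 and table-total scalings and under a minimum of 20 copies, but their split did not. With the table's total, 210 higher and 327 lower were called for MH63 to ZS97 and 256 and 147 for SY63 to MH63. With TMM factors there were 50 and 26 for SY63 to ZS97 and 18 and 21 for FR to SY63, so the majority turned in these 4 comparisons. No named ratio changed sign. With an assumed coefficient of variation of 0.2 between libraries of 1 genotype, the calls fell to 102 (MH63 to ZS97), 57 (SY63 to MH63), 4 (SY63 to ZS97), 2 (FU to SY63) and 0 (FR to SY63), and with 0.4 to 6, 1, 0, 0 and 0. The true spread between plants is unknown with 1 library each, and depth limits the rare tags. At 4-fold in place of 2-fold, which counts fewer tags by construction, there were 265, 182, 25, 30 and 13 calls, and tags without a mismatch gave 52 for SY63 to ZS97. Of 359 windows, 56 were past 0.5 in either direction. The count was 12 of 190 with 2-Mb windows, 36 of 300 with at least 10 tags and 100 with pooled copies. All 30 named ratios of 2 libraries stayed called under the 3 scalings and the minimum of 20 copies, 15 at a coefficient of variation of 0.2 and 0 at 0.4. Leaving out tags that end in 8 or more A, an alternative chosen after seeing the data, left 494, 425, 67, 76 and 33 calls in the same order of comparisons and 156 against the mid-parent. No paired analysis was possible because each genotype has 1 library, and for the same reason no library could be left out.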
